A study of Caenorhabditis elegans with 12 samples.

Results

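AMP-activated protein kinase (AMPK) is an energy-sensing kinase made of a catalytic alpha, a scaffolding beta and a regulatory gamma subunit, and Caenorhabditis elegans encodes each of them in more than 1 gene. The 9 subunit genes described here are aak-1 and aak-2 (alpha), aakb-1 and aakb-2 (beta) and aakg-1 to aakg-5 (gamma). They were taken by symbol from the raw count table, where 9 of 20182 rows matched, and all 9 passed the filter on low counts. The list was drawn up with results of these libraries known: its genes were selected on their FLAG and MYC read counts in the same 12 libraries. The values of the 9 genes are therefore given as a description, with no p-value for any of them.

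RNA came from whole young adult worms of 3 transgenic strains, by immunoprecipitation (IP) with a FLAG antibody or, as a control, a MYC antibody. Strain CEY1 (rrrSi300) carried FLAG-tagged cey-1 under the cey-1 promoter, and strain CEY2 (rrrSi233) carried FLAG-tagged cey-2 under the cey-2 promoter. Strain CEY4 (rrrSi307) carried FLAG-tagged cey-4 under the promoter of another gene, dpy-30. Each tagged gene kept its own 3' UTR and was followed, after an operon linker, by a destabilised GFP-histone H2B reporter with the tbb-2 3' UTR. All 3 insertions lie on chromosome I with a functional unc-119 copy, and each tagged protein is represented by 1 strain. There were 12 libraries, 2 for each of the 6 combinations of strain and antibody, and nothing in the labels says that replicates came from separate cultures. CEY-1, CEY-2 and CEY-4 are Y-box proteins, which hold a cold-shock domain and bind mRNAs in the cytoplasm.

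Within the AMPK trimer the alpha subunit carries the kinase domain, the beta subunit holds the complex together and the gamma subunit binds AMP, ADP and ATP. The kinase is switched on when LKB1, called PAR-4 in worms, phosphorylates the activation loop of the alpha subunit while energy is low. In C. elegans aak-2 is known for its part in lifespan and stress resistance, and the aak genes act with par-4 to hold germline stem cells quiescent in dauer larvae.

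Total counts ran from 22915137 to 33529549 in the FLAG libraries and from 3353523 to 12802412 in the MYC libraries. Levels are given as CPM, read counts divided by library depth on the usual fixed base after TMM scaling (a trimmed mean of log ratios between libraries), and 1 count was worth 0.0466 to 0.0783 CPM in FLAG and 0.0519 to 0.140 CPM in MYC libraries. Without spike-in or input libraries the RNA yield of an IP is unknown, so a FLAG over MYC value is relative within libraries. Whole worms hold all tissues, and every marker of the germline, sperm, intestine, body wall muscle, neuron and hypodermis lists had counts in all 12 libraries. The CEY2 controls stood apart from the other controls in germline markers: the 6 of them summed to between 1411 and 1464 CPM in CEY2 MYC libraries, against 2312 to 2600 CPM in CEY1 and 2498 to 2504 CPM in CEY4 MYC libraries. Other lists differed there too. The 5 sperm markers summed to 32.2 to 34.7 CPM in CEY2 controls against 68.5 to 90.6 CPM in the other controls, the 5 hypodermis markers to 721 to 752 against 880 to 1007 CPM, and the 5 neuron markers to 105 to 113 against 64.6 to 79.2 CPM. Body wall muscle sums were 3524 to 3534 CPM against 3567 to 3763 CPM, and intestine sums overlapped those of the CEY1 controls. Genes of the muscle list went both ways. In CEY1, CEY2 and CEY4 controls unc-54 had means of 1739, 1441 and 1801 CPM and unc-15 of 453, 396 and 444 CPM. By contrast, myo-3 had 352, 415 and 314 CPM and unc-22 had 1104, 1260 and 1156 CPM, while tni-3 differed by little (17.1, 16.8 and 17.6 CPM). Within the hypodermis list the sum followed the abundant cuticle gene col-19, with means of 895, 537 and 862 CPM in CEY1, CEY2 and CEY4 controls. Its other genes had higher means in CEY2 controls, by little for lin-26. In the same order these were 16.4, 90.9 and 5.11 CPM for rol-6 and 2.54, 13.9 and 1.73 CPM for dpy-7. They were 16.5, 37.7 and 5.6 CPM for bli-1 and 53.5, 56.9 and 48.1 CPM for lin-26. In that order unc-119 of the neuron list had 2.25, 1.76 and 2.06 CPM, while the other neuron genes had higher means in CEY2 controls. Of the intestine list, elt-2 had 8.84, 5.81 and 9.11 CPM and vit-6 had 7484, 7340 and 8534 CPM. By contrast, ifb-2 had 123, 191 and 97.1 CPM, and the CEY2 means of vit-2 and ges-1 lay between those of the other controls.

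The alpha subunit gene aak-1 (WBGene00019801, chromosome III) encodes a catalytic subunit. It stood at 67.7 and 69.7 CPM in the CEY1 FLAG libraries and at 57.1 and 56.8 CPM in their MYC controls. In strain CEY2 it stood at 59.0 and 62.8 CPM with FLAG and at 18.2 and 16.1 CPM with MYC. In strain CEY4 the values were 92.3 and 90.3 CPM with FLAG and 50.4 and 48.8 CPM with MYC. In each strain both FLAG libraries lay above both MYC libraries, and the CEY2 controls held the lowest values of all 12. The log2 FLAG over MYC of aak-1 was 0.27 ± 0.08 (SE) with CEY1, 1.83 ± 0.10 with CEY2 and 0.88 ± 0.07 with CEY4. With only the 4 libraries of the strain in the fit the CEY1 value was 0.15, and with DESeq2 size factors the CEY2 value was 1.49. In order of level the groups ran CEY4 FLAG, CEY1 FLAG, CEY2 FLAG, CEY1 MYC, CEY4 MYC and CEY2 MYC, and no neighbours in that order overlapped.

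The other catalytic subunit gene, aak-2 (WBGene00020142, chromosome X), varied less. In strain CEY1 it stood at 16.1 and 17.2 CPM with FLAG and at 17.9 and 23.0 CPM with MYC. In strain CEY2 the values were 32.8 and 36.5 CPM with FLAG and 23.0 and 28.6 CPM with MYC. In strain CEY4 they were 27.9 and 31.4 CPM with FLAG and 23.0 and 21.4 CPM with MYC. The FLAG libraries thus lay below the MYC libraries in CEY1 and above them in CEY2 and CEY4, while the CEY1 controls overlapped those of both other strains. The log2 FLAG over MYC of aak-2 was −0.32 ± 0.14 (SE) with CEY1, 0.43 ± 0.12 with CEY2 and 0.42 ± 0.11 with CEY4. Without CEY1 MYC replicate 2 the CEY1 value was −0.09, and with DESeq2 size factors the CEY2 value was 0.09.

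**Figure D1:**
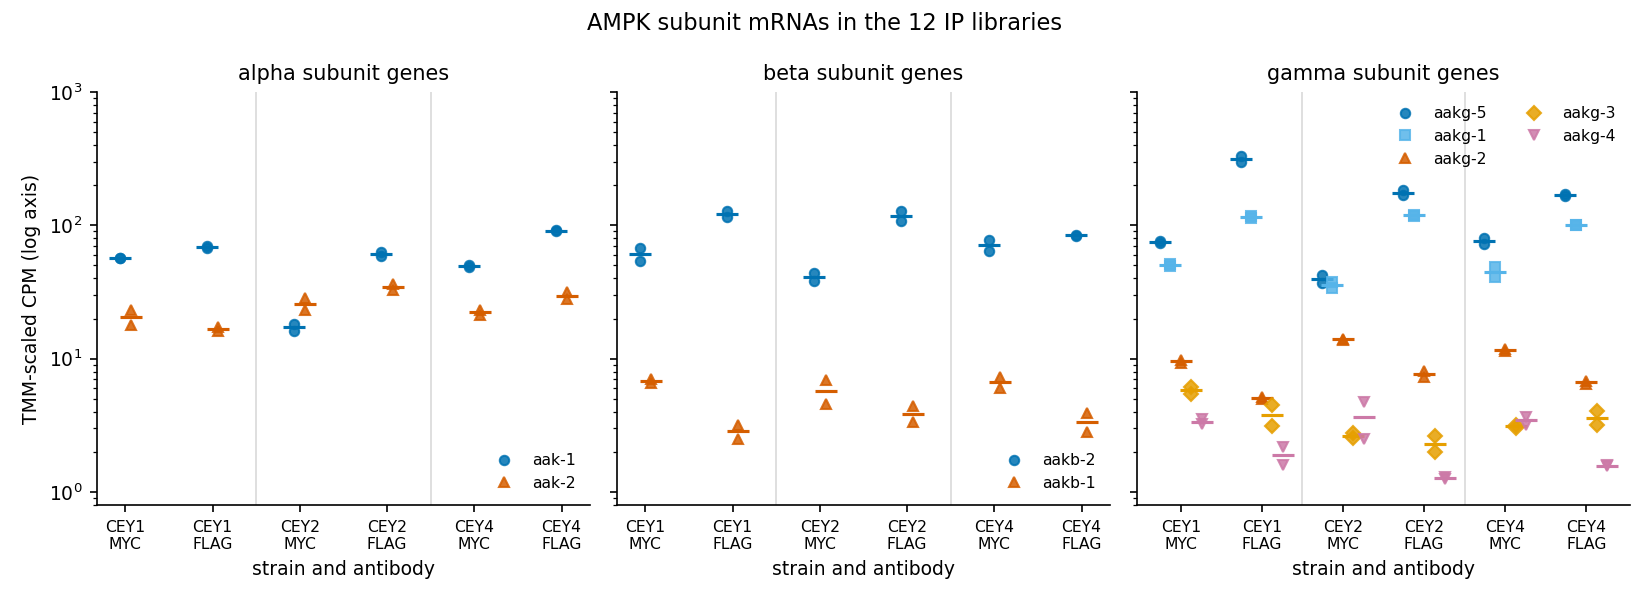
TMM-scaled CPM (log axis) of each AMPK subunit gene in the 12 libraries by strain and antibody, with points for libraries and dashes for group means; CPM is not divided by gene length, so heights are not comparable between genes. The aak-1 points of the CEY2 MYC group, at 18.2 and 16.1 CPM, are the lowest of that gene, and aakg-5 reaches 332 CPM in a CEY1 FLAG library.

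The scale decides the sign of several of these values. Scaling by total counts in place of TMM moved the median of all genes by −1.48 with CEY1, −1.71 with CEY2 and −1.40 with CEY4. On that scale the log2 FLAG over MYC of aak-1 was −1.22, 0.10 and −0.53 in the same order, and that of aak-2 was −1.81, −1.30 and −0.998. The share that a gene holds of the raw counts of its subunit class does not depend on any scaling between libraries. It is a share of reads, not of molecules, because transcript lengths differ and are not used here, and its 95% Clopper-Pearson intervals cover counting error only.

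The share of aak-1 in the alpha counts was larger with FLAG than with MYC in every strain. In CEY1 it was 80.7% (78.5 to 82.8) and 80.2% (77.7 to 82.5) with FLAG, and 76.2% (72.3 to 79.7) and 71.1% (67.9 to 74.2) with MYC. In CEY2 it was 64.2% (61.9 to 66.5) and 63.2% (61.2 to 65.3) with FLAG, and 44.1% (38.5 to 49.8) and 36.1% (30.8 to 41.6) with MYC. In CEY4 it was 76.8% (74.9 to 78.6) and 74.2% (72.2 to 76.1) with FLAG, and 68.7% (66.2 to 71.1) and 69.5% (66.8 to 72.02) with MYC. The group means differed by 6.81, 23.7 and 6.40 percentage points in the order CEY1, CEY2 and CEY4, with SDs between libraries of 3.57, 5.73 and 1.90 points. Without CEY1 MYC replicate 2 the CEY1 difference was 4.30 points, and without replicate 1 it was 9.32 points. Reads of aak-2 outnumbered those of aak-1 in the CEY2 controls, where the count ratio of aak-1 to aak-2 was 0.789 and 0.564, and in no other library. In bulk RNA, fewer cells of a type and less RNA per cell cannot be told apart. The MYC libraries are control IPs without input libraries, so their marker sums do not measure the tissue content of the worms. The CEY2 controls had lower germline, sperm, hypodermis and muscle marker sums, higher neuron sums and higher rol-6, dpy-7 and bli-1 levels. Abundant genes weigh most in such sums, and genes of the hypodermis, muscle, neuron and intestine lists went both ways. These marker differences stood beside the lower aak-1 share of the CEY2 controls, and their part in it was not tested.

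The beta subunits are the scaffold of the trimer. The gene aakb-2 (WBGene00012928, chromosome III) stood at 116 and 129 CPM in CEY1 FLAG and at 67.8 and 53.9 CPM in CEY1 MYC libraries. In CEY2 it stood at 129 and 108 CPM with FLAG and at 43.7 and 38.4 CPM with MYC. In CEY4 it stood at 84.9 and 83.9 CPM with FLAG and at 63.9 and 77.9 CPM with MYC. FLAG libraries lay above MYC libraries in all 3 strains, but by little in CEY4. The log2 FLAG over MYC was 1.02 ± 0.10 (SE), 1.53 ± 0.10 and 0.25 ± 0.09 in the order CEY1, CEY2 and CEY4, and −0.47, −0.20 and −1.16 with total-count scaling. The CEY4 value was 0.12 without CEY4 MYC replicate 1 and 0.41 without replicate 2.

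Its paralog aakb-1 (WBGene00010115, chromosome X) was counted far less often, with 39 to 81 reads in FLAG and 35 to 141 reads in MYC libraries. With CEY1 it stood at 2.49 and 3.21 CPM with FLAG and at 6.56 and 7.02 CPM with MYC. With CEY2 the values were 4.39 and 3.36 CPM against 4.61 and 6.86 CPM, and with CEY4 they were 2.81 and 3.89 CPM against 7.31 and 6.08 CPM. The FLAG libraries lay below the MYC libraries in each strain, although in CEY2 the nearest libraries were close. The log2 FLAG over MYC was −1.27 ± 0.26 (SE) with CEY1, −0.57 ± 0.25 with CEY2 and −1.0003 ± 0.22 with CEY4. The CEY2 value was −0.24 without CEY2 MYC replicate 2 and −0.36 without CEY2 FLAG replicate 2.

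Taking both beta genes as 1 class, aakb-2 held 95.6% to 97.9% of the reads in the 6 FLAG libraries and 84.8% to 92.8% in the 6 MYC libraries, and these ranges did not overlap. The mean share was higher with FLAG by 7.91 percentage points in CEY1, 9.20 in CEY2 and 4.93 in CEY4, with SDs between libraries of 1.93, 3.99 and 2.32 points.

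**Figure D2:**
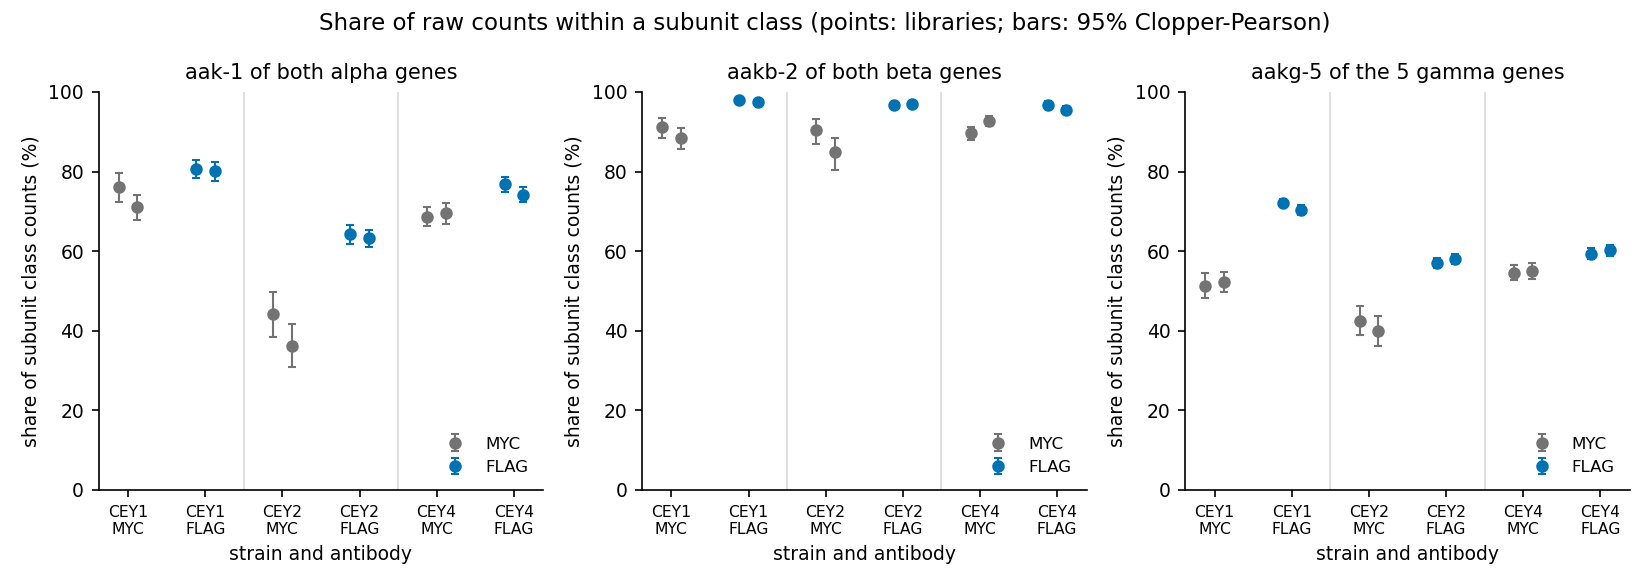
Share (%) of the raw counts of a subunit class held by aak-1, aakb-2 and aakg-5 in each library, by strain and antibody, with 95% Clopper-Pearson intervals. In each strain both FLAG points lie above both MYC points for all 3 genes, and the CEY2 MYC libraries hold the lowest aak-1 shares, 44.1% and 36.1%.

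The gamma subunits bind adenine nucleotides. Among them aakg-5 (WBGene00011276, chromosome II) and aakg-1 (WBGene00013732, chromosome III) held most reads in every library. The values of aakg-5 in CEY1 were 332 and 298 CPM with FLAG and 73.4 and 75.8 CPM with MYC. In CEY2 they were 170 and 183 CPM against 42.3 and 36.7 CPM, and in CEY4 165 and 171 CPM against 80.8 and 72.4 CPM. The CEY1 FLAG libraries were the highest and the CEY2 MYC libraries the lowest, and no FLAG library overlapped a MYC library. The log2 FLAG over MYC of aakg-5 was 2.08 ± 0.07 (SE) with CEY1, 2.16 ± 0.08 with CEY2 and 1.13 ± 0.07 with CEY4. With total-count scaling these were 0.58, 0.43 and −0.28. As folds on the TMM scale they come to 4.22, 4.46 and 2.19.

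For aakg-1 the CEY1 libraries gave 118 and 114 CPM with FLAG and 51.5 and 49.7 CPM with MYC. The CEY2 libraries gave 117 and 120.2 CPM against 37.9 and 34.02 CPM, and the CEY4 libraries 101 and 101 CPM against 48.8 and 41.2 CPM. Across the 6 FLAG libraries aakg-1 thus stayed between 101 and 120.2 CPM, while those of aakg-5 ran from 165 to 332 CPM. The log2 FLAG over MYC of aakg-1 was 1.20 ± 0.08 (SE) with CEY1, 1.72 ± 0.09 with CEY2 and 1.17 ± 0.08 with CEY4. With total-count scaling it was −0.29, −0.0074 and −0.25.

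The share of aakg-5 in the gamma counts was 72.1% and 70.4% in CEY1 FLAG libraries, against 51.4% and 52.3% with MYC. In CEY2 it was 57.0% and 58.1% against 42.6% and 39.8%, and in CEY4 59.4% and 60.2% against 54.6% and 55%. The mean difference was 19.4 percentage points in CEY1, 16.3 in CEY2 and 5.01 in CEY4, with SDs of 1.39, 2.08 and 0.689 points. The share of aakg-1 moved differently between strains: it was lower with FLAG in CEY1 (26.3% ± 0.799 against 35.2% ± 1.23, SD, n = 2) and higher in CEY4 (36.0% ± 0.683 against 32.1% ± 1.21). In CEY2 its FLAG and MYC libraries overlapped. The count ratio of aakg-5 to aakg-1 was 2.80 and 2.62 in CEY1 FLAG libraries, and between 1.08 and 1.76 in the other 10 libraries.

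The other 3 gamma genes lie on chromosome X and were counted rarely. Of them aakg-2 (WBGene00020633) had the most reads. It stood at 5.17 and 5.01 CPM with FLAG and 9.35 and 9.77 CPM with MYC in CEY1. In CEY2 it stood at 7.31 and 8.02 CPM against 13.8 and 14.1 CPM, and in CEY4 at 6.85 and 6.47 CPM against 11.5 and 11.8 CPM. Every FLAG library lay below every MYC library, and the log2 FLAG over MYC differed by little between strains, at −0.91 ± 0.19 (SE), −0.86 ± 0.16 and −0.81 ± 0.15. Its share of the gamma counts was 1.12% to 2.55% in FLAG and 6.54% to 15.3% in MYC libraries.

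The gene aakg-3 (WBGene00021527) had 37 to 68 reads in FLAG and 18 to 65 reads in MYC libraries, or 2.00 to 4.46 CPM and 2.52 to 6.16 CPM. Its log2 FLAG over MYC was −0.64 ± 0.25 (SE) with CEY1, −0.19 ± 0.31 with CEY2 and 0.22 ± 0.24 with CEY4, and libraries overlapped in the latter 2 strains. The gene aakg-4 (WBGene00020135) had 24 to 28 reads in FLAG and 19 to 71 in MYC libraries. At 1.26 to 2.19 CPM against 2.501 to 4.76 CPM its FLAG libraries lay below its MYC libraries, with log2 values of −0.85 ± 0.33, −1.49 ± 0.34 and −1.13 ± 0.29. Without CEY1 FLAG replicate 1 the CEY1 value of aakg-3 was −0.39, and without CEY2 MYC replicate 2 the CEY2 value of aakg-4 was −0.95. Counts this low leave wide errors on strain differences: FLAG over MYC of aakg-3 was −0.86 ± 0.35 with CEY1 relative to CEY4, and that of aakg-4 was 0.64 ± 0.47 with CEY1 relative to CEY2.

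**Figure D3:**
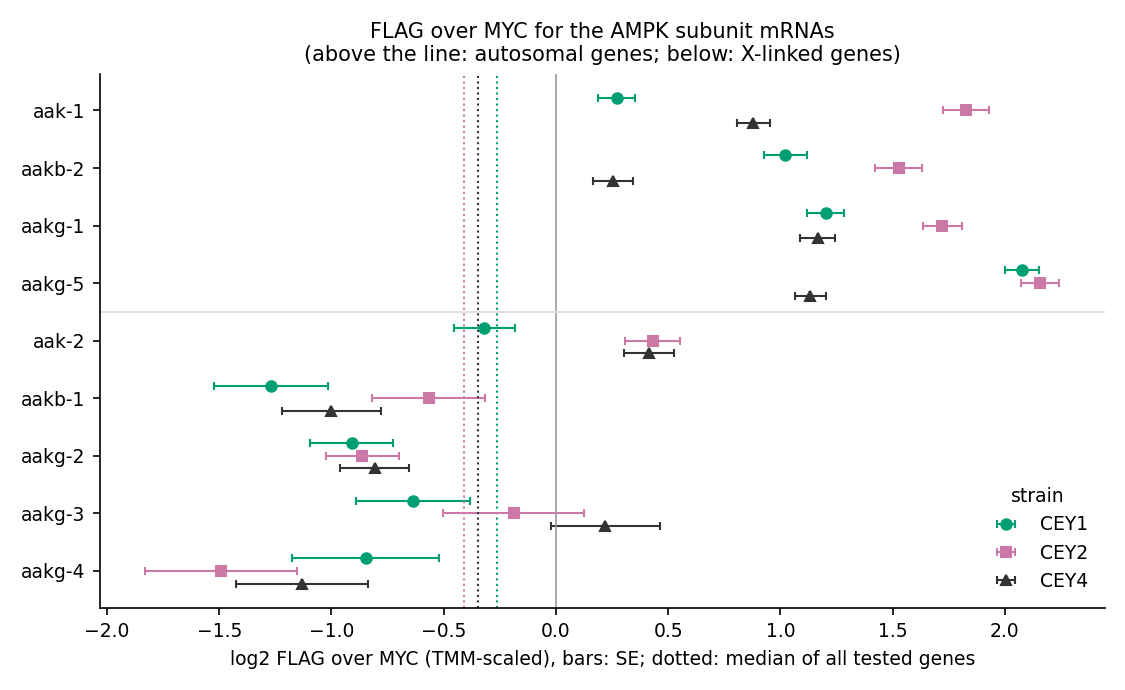
Log2 FLAG over MYC (TMM-scaled, bars are SE) of the 9 AMPK subunit genes in strains CEY1, CEY2 and CEY4, with dotted lines at the medians of all tested genes (−0.26, −0.41 and −0.35). The 4 autosomal genes lie above 0 in every strain, and within each subunit class the X-linked genes lie below them; with total-count scaling the autosomal values also lie below 0, except aakg-5 with CEY1 and CEY2 and aak-1 with CEY2.

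Within each subunit class and strain, every autosomal gene had a higher FLAG over MYC value than every X-linked gene; across classes aak-2 lay above aakb-2 with CEY4. In the order CEY1, CEY2 and CEY4, the 4 autosomal genes had median log2 FLAG over MYC values of 1.11, 1.77 and 1.01, and the 5 X-linked genes had −0.85, −0.57 and −0.81. In edgeR's quasi-likelihood test over all 15194 genes (adjusted p under 0.05), 4 of the 9 were past the threshold as higher and 5 as lower with CEY1, where 66.7% of all genes were past it (32.3% higher, 34.4% lower). With CEY2 these were 5 higher and 3 lower (69% of all genes: 34.9% and 34.1%), and with CEY4 5 higher and 3 lower (68.5% of all genes: 31.5% and 37%). Since the genes were listed with these contrasts known, nothing is read from the counts. With total-count scaling they became 1 higher and 8 lower, 1 and 5, and 0 and 9. On that scale 10.9%, 13.3% and 9.25% of all genes were called higher and 71.4%, 71.7% and 79.7% lower. The lower count of CEY1 dropped to 2 without CEY1 FLAG replicate 1 or without CEY1 MYC replicate 2. That of CEY2 dropped to 1 without CEY2 MYC replicate 2.

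Whole chromosomes were set beside the subunit genes. Chromosome assignments came from RefSeq's gene table of assembly WBcel235, matched by symbol for 14114 tested genes (92.9%). In that order the medians of all 1942 tested X-linked genes were −0.29, −0.86 and −0.44, and those of 12172 autosomal genes were −0.27, −0.27 and −0.33. X-linked genes as a whole thus lay 0.59 below autosomal genes with CEY2 but only 0.02 and 0.11 below them with CEY1 and CEY4. Without CEY1 MYC replicate 1 they lay 0.014 above them with CEY1. Among genes of at least 10 CPM the difference of X-linked from autosomal medians was −1.39 with CEY2, 0.19 with CEY1 and 0.06 with CEY4. A gene met that limit if its FLAG or its MYC mean in the strain reached it. Genes high with only 1 antibody thus passed, and the genes taken differed between strains.

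Levels differ too, and FLAG over MYC went with level over the whole table. Level here is the mean CPM over all 12 libraries, FLAG libraries included. A high FLAG over MYC value itself raises that mean, so this trend and the comparison with level ranges are in part built in. Genes with a mean of 1 to 5 CPM over the 12 libraries had medians of −0.85, −1.11 and −0.84 (CEY1, CEY2, CEY4), whereas genes of 50 to 100 CPM had 0.76, 1.60 and 0.72. The X-linked subunit genes averaged 2.53 CPM (aakg-4), 3.54 CPM (aakg-3), 4.88 CPM (aakb-1), 9.10 CPM (aakg-2) and 24.9 CPM (aak-2). The autosomal ones averaged 57.4 CPM (aak-1), 77.9 CPM (aakg-1), 83.0 CPM (aakb-2) and 142 CPM (aakg-5). Set against the median of genes in its own level range, 5 of the 9 genes lay above and 4 below in each strain, and the median difference was 0.00, 0.12 and 0.07. The largest positive differences were those of aakg-5 with CEY1 (1.00) and of the sparsely counted aakg-3 with CEY4 (1.06). The gene aakg-2 lay below its range in all 3 strains, by −0.52, −0.63 and −0.50. How far level accounts for the separation of the paralogs was not tested.

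**Figure D4:**
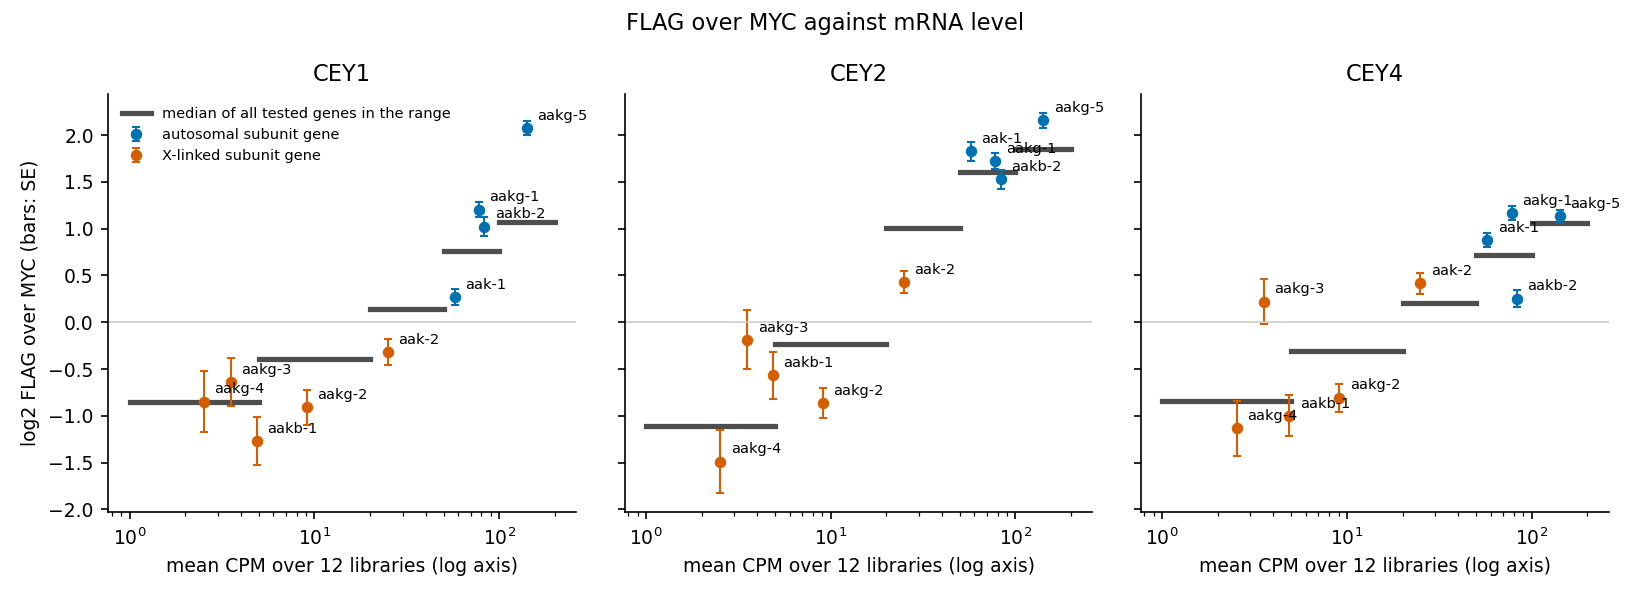
Log2 FLAG over MYC (bars are SE) of the 9 AMPK subunit genes against their mean CPM over 12 libraries (log axis), 1 panel per strain, with horizontal bars at the median of all tested genes in each CPM range. The mean CPM includes the FLAG libraries, so the 2 axes are not independent. In each panel 5 subunit genes lie above the median of their range and 4 below, and aakg-5 with CEY1 stands 1.00 above it; total-count scaling lowers the median of all genes by 1.40 to 1.71.

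The control IPs also differed between strains. Between the MYC libraries of CEY2 and CEY4, the log2 difference was −1.53 ± 0.11 (SE) for aak-1, −0.96 ± 0.09 for aakg-5, −0.79 ± 0.11 for aakb-2 and −0.32 ± 0.10 for aakg-1. The 5 X-linked genes lay between −0.23 and 0.26 in that comparison. Over all genes the median was −0.40, and it was −0.47 for autosomal and 0.06 for X-linked genes. The aak-1 value had 8.74% of all tested genes below it. Between the CEY1 and CEY4 controls, aakg-3 had the largest difference of the 9 genes, 0.91 ± 0.25, and the rest lay between −0.28 and 0.20. With the tested genes as a whole, 57.8% were called between these controls (15.4% higher and 42.4% lower in CEY2). Between the CEY1 and CEY2 controls 54.5% were called (39.7% higher and 14.8% lower in CEY1), and between those of CEY1 and CEY4 14.6% (6.2% and 8.35%). The CEY2 controls are the shallowest of the 6 groups, with 3605114 and 3353523 counts, and the part of depth was not tested.

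Differences of FLAG over MYC between strains carry both the FLAG and the control libraries. Over all genes such a difference was called for 49.9% between CEY1 and CEY2 (18.4% higher, 31.4% lower in CEY1), 36.8% between CEY1 and CEY4 (18.2% and 18.6%) and 47% between CEY2 and CEY4 (32.3% and 14.7%). For aak-1 the CEY1 value was 1.56 ± 0.13 (SE) below the CEY2 value on the log2 scale, although aak-1 was higher in the CEY1 FLAG libraries (68.7 ± 1.46 CPM, SD, n = 2) than in the CEY2 FLAG libraries (60.9 ± 2.69 CPM). The distance lay in the controls, which stood at 56.9 ± 0.211 CPM in CEY1 and 17.1 ± 1.46 CPM in CEY2. For aak-2 the order was different: FLAG levels were 16.7 ± 0.755 CPM in CEY1, 34.7 ± 2.60 CPM in CEY2 and 29.7 ± 2.45 CPM in CEY4, while its controls stood at 20.5 ± 3.66, 25.8 ± 3.91 and 22.2 ± 1.09 CPM. For aakg-5 the CEY4 value lay 0.94 ± 0.10 below the CEY1 value and 1.02 ± 0.11 below the CEY2 value. For aakb-2 it lay 0.77 ± 0.13 below CEY1 and 1.27 ± 0.14 below CEY2. The strain differences of aakg-2 were at most 0.10 in size, with standard errors of 0.22 to 0.24.

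Some subunit genes lie over or beside other genes in WBcel235, and how reads of overlapping genes were assigned is not given in the sources used here. The span of aak-1 overlaps that of sma-2, that of aak-2 overlaps mec-4 and that of aakg-4 overlaps hum-6. The first pair of these neighbours had little signal, with group means of 0.539 to 3.32 CPM for sma-2 and 0.208 to 0.692 CPM for mec-4. The gene hum-6 had 27.3 to 41.4 CPM, more than aakg-4 itself, so the values of aakg-4 are uncertain. The gene rsks-1, which encodes the S6 kinase of the TOR pathway, flanks aakb-2.

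Likeness over the 12 libraries was measured by the root mean square difference of log2 CPM after centring each gene on its mean. By this measure the profile nearest to that of each subunit gene, among the other 8, belonged to a gene of the same kind, autosomal or X-linked. The 9 genes were listed with these values known. The closest pairs among the 9 genes were aakb-2 with aakg-1 (0.31), aakb-1 with aakg-2 (0.32) and aakb-1 with aakg-4 (0.32), whereas aak-1 and aak-2 were 0.85 apart and their profiles had a Pearson r of −0.02. Among all tested genes with a symbol, those most like aak-1 were cept-2 (0.13), gtap-2 (0.15) and D2096.7 (0.15), and those most like aak-2 were gly-11 (0.15), lido-8 (0.15) and xbp-1 (0.18). Libraries of a group share strain and antibody, so these values describe 6 groups more than 12 points. Ranked by Pearson's r instead, 1 of the 3 genes named for aak-1 and 0 of the 3 named for aak-2 were in the top 3. Among the 9 genes, r of X-linked aakg-3 was highest with autosomal aak-1 (0.34, against 0.32 with aakg-4). That of X-linked aak-2 was highest with autosomal aakg-1, by little (0.1704, against 0.1702 with aakg-2).

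Genes that act around AMPK were taken from 6 lists that hold no subunit gene. These lists too were drawn up with results of these libraries known, so the calls and p-values describe single genes within the fit over all genes and are no independent evidence about the lists. Of 48 tested pathway genes, 37 were higher and 5 lower with FLAG in CEY1, 40 higher and 5 lower in CEY2, and 40 higher and 3 lower in CEY4 (edgeR, adjusted p under 0.05 over all genes). The median log2 FLAG over MYC of these genes was 1.30, 1.69 and 1.12, while that of all genes was −0.26, −0.41 and −0.35. Of all 15194 tested genes, 32.3%, 34.9% and 31.5% were called higher and 34.4%, 34.1% and 37% lower. The counts of each list below are to be read beside these shares and beside the levels of its genes, and no list was tested as a set. The median level of the 48 pathway genes was 80.8 CPM over the 12 libraries, and all tested genes of 50 to 100 CPM had 69.1%, 82.9% and 74.1% called higher. Levels of the pathway genes spread widely, and 35 of the 48 fell in the level ranges, which end at 200 CPM. Of these 35, 28 lay above the median of their range with CEY1, 21 with CEY2 and 25 with CEY4. With total-count scaling 17 of the 48 were higher and 24 lower in CEY1, 19 and 23 in CEY2, and 12 and 29 in CEY4, so the scale sets which direction is the more common. On that scale 10.9%, 13.3% and 9.25% of all tested genes were called higher and 71.4%, 71.7% and 79.7% lower. The 7 X-linked pathway genes had medians of 0.47, 0.56 and 0.71, and the 41 autosomal ones 1.45, 1.77 and 1.17.

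Of the 7 upstream genes, 6 were higher in each strain, with medians of 0.92, 1.45 and 1.05. The kinase gene par-4 (LKB1) had 0.41 ± 0.07 (SE) with CEY1, 2.63 ± 0.08 with CEY2 and 1.20 ± 0.06 with CEY4. The MO25 gene mop-25.2, whose product belongs to the LKB1 complex, had 1.49 ± 0.10, 1.35 ± 0.14 and 0.49 ± 0.10, and the TAK1-like kinase gene mom-4 had 1.68 ± 0.08, 2.37 ± 0.09 and 1.47 ± 0.07. The 7th gene, ckk-1, which encodes the calmodulin-dependent kinase kinase, was lower with CEY2 (−1.30 ± 0.26) and CEY4 (−0.88 ± 0.31) and had 0.47 ± 0.31 with CEY1 (edgeR, adjusted p = 0.179). Its mean over the 12 libraries was 3.16 CPM, and of all tested genes of 1 to 5 CPM 58.1% were called lower with CEY2 and 54% with CEY4.

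Of the 5 AMPK-related kinase genes, 4 were higher with CEY1, 3 with CEY2 and 5 with CEY4, and 1 was lower with CEY2, with medians of 1.45, 0.62 and 1.34. The polarity kinase gene par-1 had 2.17 ± 0.06 (SE), 2.57 ± 0.06 and 1.85 ± 0.06, and pig-1, a MELK homolog, had 0.64 ± 0.07, 2.36 ± 0.08 and 1.05 ± 0.06. The gene unc-82, a muscle kinase of the NUAK type, was higher with CEY1 (1.45 ± 0.08) and CEY4 (1.92 ± 0.07) and lower with CEY2 (−0.22 ± 0.09, edgeR, adjusted p = 0.0261).

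TOR kinase complexes work against AMPK in growth control. Of 12 TOR pathway genes, 9 were higher and 3 lower with CEY1, 12 and 0 with CEY2, and 9 and 1 with CEY4, with medians of 1.33, 2.07 and 1.12. The TOR kinase gene let-363 had 1.86 ± 0.05 (SE), 2.92 ± 0.06 and 2.17 ± 0.05, and the Raptor gene daf-15 had 2.27 ± 0.05, 3.15 ± 0.06 and 2.48 ± 0.05. The Rictor gene rict-1 had 1.64 ± 0.06, 3.35 ± 0.06 and 2.09 ± 0.06.

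Of 8 insulin pathway genes, 5 were higher and 0 lower with CEY1, 6 and 2 with CEY2, and 6 and 0 with CEY4, with medians of 1.20, 2.14 and 1.19. The insulin receptor gene daf-2 had 1.30 ± 0.06 (SE), 3.27 ± 0.06 and 2.03 ± 0.06. The PI3 kinase gene age-1 had −0.0015 ± 0.06 with CEY1 (edgeR, adjusted p = 0.989), but 2.38 ± 0.06 with CEY2 and 1.30 ± 0.06 with CEY4. The 2 genes lower with CEY2 were the X-linked kinase genes akt-2 (−0.79 ± 0.17) and sgk-1 (−1.06 ± 0.20), named after their values were seen. They averaged 7.76 and 9.78 CPM over the 12 libraries, and 44.6% of all tested genes of 5 to 20 CPM were called lower with CEY2.

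Of 10 genes for lipid enzymes and transcription regulators, 8 were higher and 1 lower with CEY1, 7 and 1 with CEY2, and 9 and 0 with CEY4, with medians of 1.09, 1.34 and 1.01. The acetyl-CoA carboxylase gene pod-2 had 0.72 ± 0.05 (SE), 1.70 ± 0.05 and 1.28 ± 0.05, whereas fasn-1, the fatty acid synthase gene and the lower one, had −0.75 ± 0.06, −0.79 ± 0.05 and −0.03 ± 0.05 (edgeR, adjusted p = 0.585 with CEY4). The CREB gene crh-1 had 2.16 ± 0.08, 2.17 ± 0.08 and 1.38 ± 0.07, and skn-1, an Nrf-type transcription factor gene, had 3.40 ± 0.07, 2.81 ± 0.07 and 2.03 ± 0.06. The autophagy list matched 6 of 7 symbols, of which 5 were higher and 1 lower with CEY1, 6 and 0 with CEY2, and 5 and 1 with CEY4, with medians of 1.84, 1.46 and 1.15. The kinase gene unc-51 (ULK1) had 1.81 ± 0.09, 1.46 ± 0.09 and 1.44 ± 0.08, the gene atg-9 had 2.46 ± 0.07, 3.14 ± 0.07 and 1.81 ± 0.06, and atg-18 had 3.16 ± 0.07, 2.43 ± 0.08 and 1.87 ± 0.07.

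**Figure D5:**
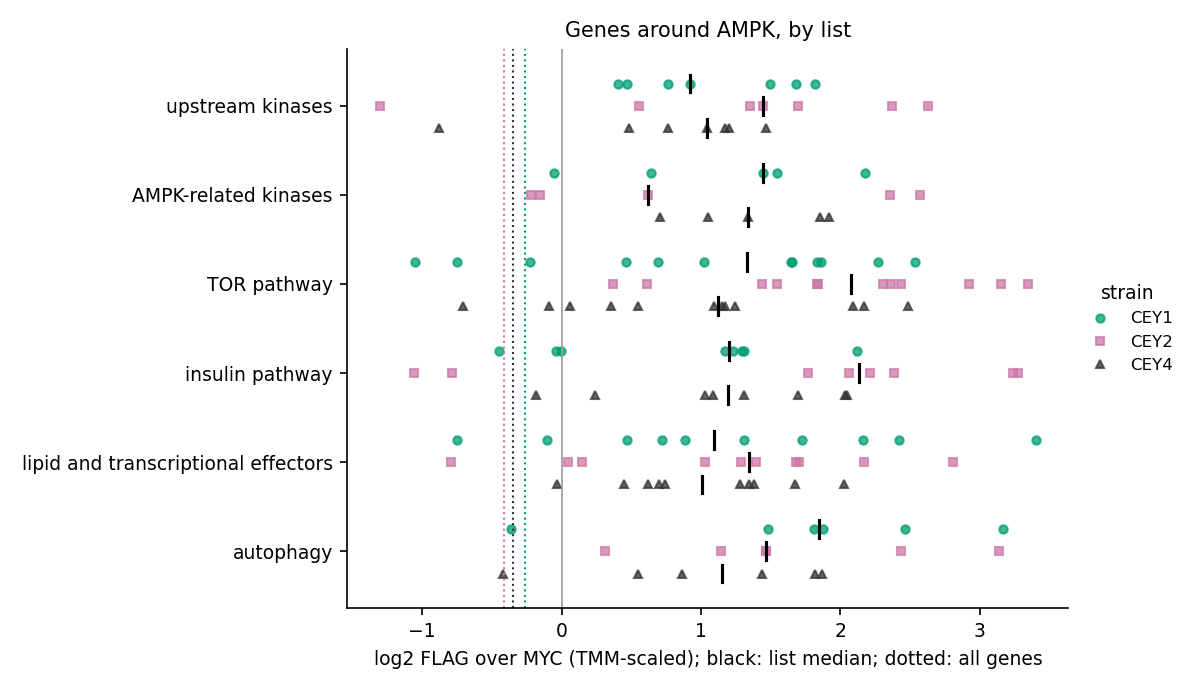
Log2 FLAG over MYC (TMM-scaled) of the 48 tested genes of 6 lists around AMPK, by strain, with black bars at list medians and dotted lines at the medians of all genes. List medians lie between 0.62 and 2.14. With total-count scaling the 48 genes together had medians of −0.19 (CEY1), −0.04 (CEY2) and −0.29 (CEY4), and all tested genes had −1.75, −2.12 and −1.75.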

How the data were processed

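RNA from 6 FLAG and 6 MYC IPs of whole young adult worms was converted to libraries by ScriptSeq v2, per the labels' protocols. The authors deposited raw counts per gene, 1 column per library, and a normalized table on a log2 scale. That table's values matched counts scaled to 1 common total plus 8 before the logarithm: all values (100%) gave back the raw count within 0.5 counts or 1%. For the aligner, the genome build and the read counter, nothing is stated in the labels or file headers. Symbols were matched by identifier for 18778 of 20182 rows (93.0%).

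The deposited counts were fitted with edgeR 4.0.16 under R 4.3.3 (filterByExpr by group, minimum count 10, 15194 genes kept, TMM, 1 mean per group over 12 libraries, quasi-likelihood F tests, two-sided, Benjamini-Hochberg adjusted over all genes, threshold 0.05). The common biological coefficient of variation was 0.0476. Log2 CPM for likeness used a prior count of 2. The fit was run on simulated counts in which only a small set of genes differed between antibodies. In the real libraries most genes were called, so that run does not test the choice of scaling. The SE comes from the F statistic. The spread behind p-values is that between these libraries alone and may be technical. The genes named are the 9 subunit genes, the 3 of each pathway list with the lowest adjusted p in any strain, and the 3 most like aak-1 and aak-2. 1 gene that the rule names is not reported here. Others were named after their values were seen: ckk-1, fasn-1, akt-2, sgk-1, the marker genes given singly and the overlapping or flanking genes. The members and lists were chosen with earlier results of these data known. Alternatives were other scalings, DESeq2 1.42.0, no filter, fewer libraries and a replicate block. Replicates of a group differed by more than sampling noise (chi-square per degree of freedom 1.47 to 4.04).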

Additional observations from a re-analysis of the deposited data

Results flagged for a closer look

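FLAG over MYC of aak-2 had opposite signs in the libraries of different strains: both FLAG libraries lay below both MYC libraries with CEY1 and above them with CEY2 and CEY4. The CEY1 value was lower by −0.75 than that of CEY2 and by −0.73 than that of CEY4 on the log2 scale, with SEs of 0.18 for both; no p is given, since the genes were chosen with these values known. The CEY1 value of −0.32 was −0.09 without CEY1 MYC replicate 2, and the CEY2 value of 0.43 was 0.09 with size factors and with DESeq2. With total-count scaling all 3 strains had negative values. The share of aakg-1 in the gamma counts was lower with FLAG in CEY1 and higher in CEY4, and the difference of −12.7 percentage points between these strains was not tested.

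FLAG over MYC of the named pathway genes differed between strains in edgeR's interaction test, for each gene by the log2 difference given here for the pair of strains farthest apart. For CEY1 minus CEY2 it was −2.38 for age-1, −2.22 for par-4, −1.97 for daf-2, −1.71 for pig-1, −1.70 for rict-1, −1.06 for let-363, −0.98 for pod-2 and −0.88 for daf-15. For CEY2 minus CEY4 it was −2.14 for unc-82, 1.32 for atg-9, 0.90 for mom-4, 0.78 for crh-1 and 0.72 for par-1. For CEY1 minus CEY4 it was 1.37 for skn-1, 1.30 for atg-18, 1.01 for mop-25.2 and 0.37 for unc-51. These genes were named for their low adjusted p and are shown at their largest difference. Over all tested genes 49.9% differed between CEY1 and CEY2, 36.8% between CEY1 and CEY4 and 47% between CEY2 and CEY4. The adjusted p of these edgeR tests ran from 1.85e-24 (age-1) to 0.0132 (unc-51).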

How the results depend on the processing

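Differences of shares within a subunit class moved by less than the spread between libraries when counts were pooled. With 2 libraries a group, leaving 1 out cannot move them by more than that spread. Counts of pathway genes called stayed within 1.5 times under size factors, DESeq2, no filter, 4 libraries per fit and each library left out, but not with total-count scaling (17 higher and 24 lower with CEY1, 19 and 23 with CEY2, 12 and 29 with CEY4). Of all tested genes, total-count scaling called 10.9%, 13.3% and 9.25% higher and 71.4%, 71.7% and 79.7% lower. With the replicate block within strain the pathway counts were 37 and 5, 40 and 5, and 40 and 3, as without it. Replicate differences of FLAG and MYC correlated at −0.026 to −0.0018 across all tested genes. Across genes of at least 10 CPM they correlated at −0.063 to −0.032. These values showed no pairing of libraries by replicate number, but they cannot exclude it. Total-count scaling reversed aak-1 with CEY1 (−1.22) and CEY4 (−0.53), aak-2 with CEY2 (−1.30) and CEY4 (−0.998), aakb-2 with CEY1 (−0.47), CEY2 (−0.20) and CEY4 (−1.16), aakg-1 with CEY1 (−0.29), CEY2 (−0.0074) and CEY4 (−0.25) and aakg-5 with CEY4 (−0.28). The authors' deposited log2 values, on the same total, gave −1.19, −0.52, −1.26, −0.95, −0.47, −0.20, −1.14, −0.28, −0.0043, −0.24 and −0.28 in the same order. The value of aakg-3 with CEY4, 0.22 and not past the threshold, also changed sign, to −1.19 and −0.88. With size factors the CEY2 values shifted, aak-2 from 0.43 to 0.09. Genes with a FLAG or MYC mean of at least 10 CPM in the strain were also taken alone. Their difference of X-linked from autosomal medians was 0.19 (CEY1), −1.39 (CEY2) and, reversed, 0.057 (CEY4). Over all tested genes this difference ran from −0.714 to −0.565 in CEY2 with a library left out, beside −0.59 with all. The cause was not tested. Low counts limit aakb-1, aakg-3 and aakg-4.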
